A study of Arabidopsis thaliana with 8 samples.

Results

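Late embryogenesis abundant (LEA) and cold-regulated proteins are small, very hydrophilic proteins that plants make when cells lose water, and 5 of their genes are described here in Arabidopsis thaliana seedlings after a long heat stress. They are AT3G02480, LEA4-5 (AT5G06760), COR15A (AT2G42540), COR15B (AT2G42530) and COR47 (AT1G20440), each measured by 1 probe set that maps to that gene alone, and they are 5 of 13286 genes measured in this way. The genes were selected on measured values of these arrays, with the heat change before recovery and the change of the heat effect during recovery known for AT3G02480 and LEA4-5, and the heat changes at both times known for the COR genes. For AT3G02480 and LEA4-5 the heat change after recovery follows from those values. Every comparison of heat with mock plants is therefore given as description for the 5 genes, without a test.

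Seedlings were grown in vitro for 3 weeks at 22 °C in long days. Heat plants spent 30 h at 37 °C, and mock plants stayed at 22 °C. Each was sampled either without recovery or 2 days after the return to 22 °C, and the 4 groups had 2 biological replicates each, on 8 Affymetrix arrays. The labels name no genotype or ecotype and do not say whether replicates were separate cultures or how many plants were pooled, so every p-value measures the spread between these arrays.

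LEA proteins gather in maturing seeds, and in leaves and roots during drought, cold or treatment with the hormone abscisic acid. They are largely unfolded in water and are known to protect membranes and enzymes as cells dry. COR15A and COR15B are imported into chloroplasts, where they stabilize membranes during freezing, and COR47 is an acidic dehydrin. Promoters of the COR genes are classic targets of the CBF factors that act in cold, while many LEA genes respond to abscisic acid.

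Values are log2 array signals, on which 1 unit is a doubling, and a value below 2.3 was read as the floor of the array. Where both arrays of the lower group lay at the floor, the log2 change is a lower bound and is written "at least". Changes carry the standard error (SE) of the fit over all 8 arrays, and levels the SD of 2 arrays. Arrays at the floor barely vary. For genes silent outside heat, this SE and its p therefore understate the spread between the heat arrays. In whole seedlings, more RNA per cell and more cells with the RNA cannot be told apart.

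AT3G02480 and LEA4-5 were close to silent in unstressed seedlings. AT3G02480, a short LEA protein of the LEA_4 class, read 2.23 and 2.34 on the mock arrays without recovery and 13.04 and 13.48 on the heat arrays. After recovery it read 2.18 on both mock arrays and 3.04 and 3.00 on the heat arrays. One earlier mock array lay at the floor and the other just above it, both heat arrays stood far above, and the recovered plants kept a weak signal that did not overlap that of their mock plants.

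LEA4-5, a LEA_1 class protein known to limit drought damage, read 9.85 and 10.59 on the heat arrays without recovery. All 6 other arrays lay between 2.178 and 2.182, which is the floor. Its signal was thus seen in heat before recovery and on no other array.

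The COR genes had a signal on every array. COR15A read 5.68 and 5.69 in mock and 11.12 and 11.61 in heat without recovery. After recovery it read 5.50 and 6.49 in mock and 8.60 and 7.46 in heat. The order of its levels was thus heat without recovery, heat after recovery, and then both mock groups, which overlapped each other.

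COR15B, the neighbour of COR15A on chromosome 2 in the TAIR10.1 gene table, read 9.76 and 9.69 in mock and 10.71 and 10.35 in heat without recovery. After recovery it read 8.80 and 9.50 in mock and 11.16 and 10.31 in heat. The 2 heat groups overlapped each other, and both stood above both mock groups. How far the probes of these neighbouring relatives also bind each other's RNA was not examined.

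COR47 read 10.75 and 10.86 in mock and 12.21 and 12.79 in heat without recovery. After recovery it read 10.35 and 10.52 in mock and 11.20 and 11.46 in heat. Its 4 groups did not overlap, in the order heat without recovery, heat after recovery, earlier mock and later mock.

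**Figure D1:**
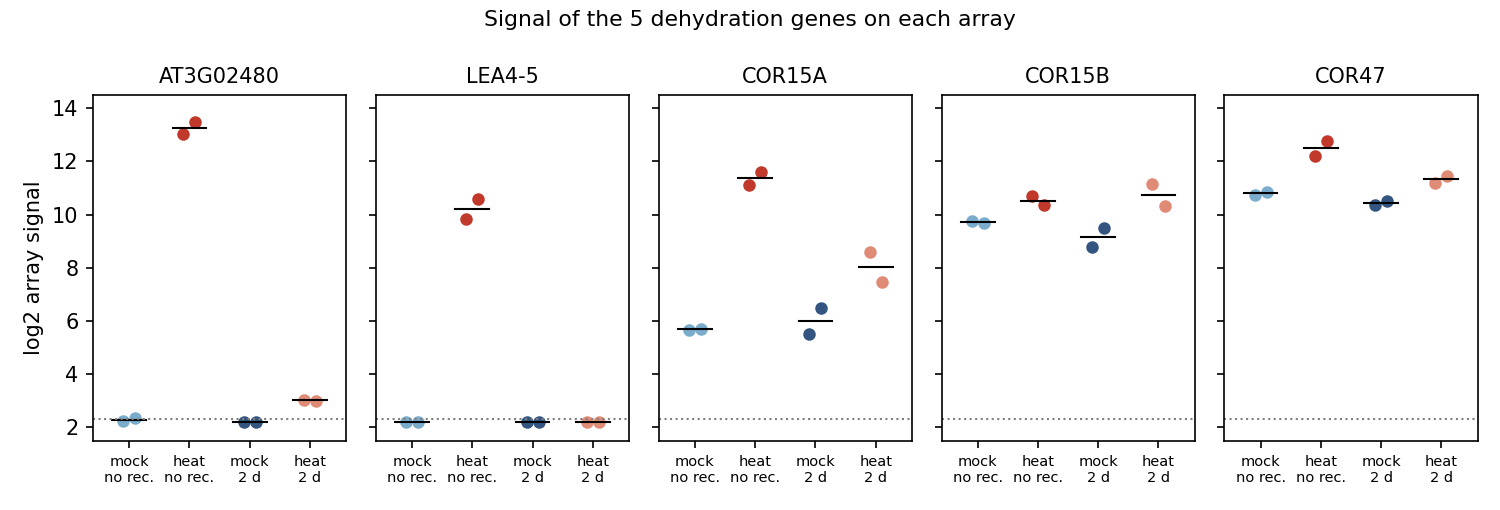
Log2 array signal (y axis) of the 5 genes on each array, by group (x axis: mock and heat without recovery, mock and heat after 2 days of recovery). Points are single arrays, black lines are means of 2 arrays and the dotted line is the floor at 2.3; AT3G02480 and LEA4-5 leave the floor region mainly in heat without recovery, while COR15B and COR47 have a high signal in every group.

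Heat and mock seedlings were compared first directly after the stress. The heat change was 10.97 ± 0.15 for AT3G02480 and at least 8.04 ± 0.25 for LEA4-5. It was 5.68 ± 0.53 for COR15A, a 51.4-fold higher signal, 1.69 ± 0.22 for COR47 (3.24-fold) and 0.80 ± 0.39 for COR15B (1.75-fold). The change of COR15A was thus several times that of its neighbour COR15B on the log2 scale. COR15B started from a high signal and COR15A from a low one, and the part of these starting levels was not tested. As background, 21.2% of all probe sets were called higher in this comparison (limma, Benjamini-Hochberg adjusted p under 0.05) and 19.8% lower.

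Other RNA measures moved with heat on the same arrays. A control probe set for 25S ribosomal RNA stood at 13.49 ± 0.11 in heat and 11.58 ± 0.21 in mock (SD, n = 2), and its part in these values was not tested. Of 13 leaf markers 5 were measured, of which limma called 4 lower and 1 higher. Their summed linear signal ran from 20801 to 22020 in heat and from 55452 to 57502 in mock, and from 52499 to 57140 in both groups after recovery. Of 3 root markers PYK10 was called lower (log2 change -2.71 ± 0.27), and EXPA7 and EXPA18 lay at the floor throughout. The seed oil-body genes OLEO3 and AT3G01570, the 2 of 12 seed markers measured, were at the floor on all 8 arrays, heat arrays included.

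The rest of the LEA family was set beside the 5 genes. This list was chosen with earlier results of these data known, so its shares, medians and p-values are description. Of 51 family genes 35 had a probe set with 1 gene, and 30 of these are not among the 5. In heat without recovery limma called 11 of the 30 higher (36.7%, against 21.2% of all probe sets) and 2 lower, and 7 of the 30 were at the floor on all arrays. The median log2 change was 0.40 over the 30, against 0.00 over all probe sets. The 11 rises ran from 0.66 to 7.42, with adjusted p between 0.000278 and 0.0313. Of the 11 genes, 9 were at the floor in mock plants, so their rises are minimum values.

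The largest of these rises came from genes silent in mock seedlings. AT3G17520, of the LEA_4 class, read 8.82 and 10.37 on the heat arrays (at least 7.42 ± 0.52, adjusted p = 0.000787). AT2G23110, of the PvLEA18 class, read 8.47 and 9.38 (at least 6.66 ± 0.31, adjusted p = 0.000278). LEA18, also called LEA4-2 and a close relative of LEA4-5, read 7.42 and 8.82 (at least 5.94 ± 0.47, adjusted p = 0.00106). Each of the 3 was at the floor on both earlier mock arrays. Their SE and p are thus too small: for AT3G17520 the SD was 1.10 in heat and 0.00 in mock without recovery.

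Further LEA_4 class rises were those of AT2G42560 (at least 5.60 ± 0.65), AT3G53040 (at least 5.45 ± 0.70) and AT4G36600 (at least 3.48 ± 0.44), with limma adjusted p from 0.00319 to 0.00434. DI21, a drought-induced LEA_3 protein, had a signal in mock seedlings at 7.20 and 7.72 and read 10.27 and 9.94 in heat (2.65 ± 0.29, adjusted p = 0.00285). The remaining rises, named after their values were seen, were those of the dehydrin LEA (AT2G21490), AtLEA4-1, AT2G03850 and AT2G46140.

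By class, 5 of the 13 other LEA_4 genes rose and none fell in this limma fit, against 21.2% and 19.8% of all probe sets. Of these 13, 3 were at the floor on all arrays. Both other LEA_1 genes rose. Of the 5 other dehydrins 1 rose and 1 fell, near the shares over all probe sets, and 1 was at the floor throughout. The dehydrin that fell was AT1G54410 (HIRD11), which read 14.17 and 13.98 in mock and 11.55 and 11.04 in heat (-2.78 ± 0.19, adjusted p = 0.000743). AT2G23120 of the PvLEA18 class also fell, by 0.44 (SE 0.09, adjusted p = 0.0183), while AT2G23110 of the same class rose. Neither of the 2 SMP class genes left the floor.

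These counts depended on the setting. With only the 4 arrays compared, 5 of the 30 were called higher (16.7%), near the 15.9% of all probe sets. With values under 4 set to 4 it was 7 (23.3%, against 18.6%). Counts from fits that leave 1 array in a group are not interpreted for this family, since 1 array shows no spread.

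**Figure D2:**
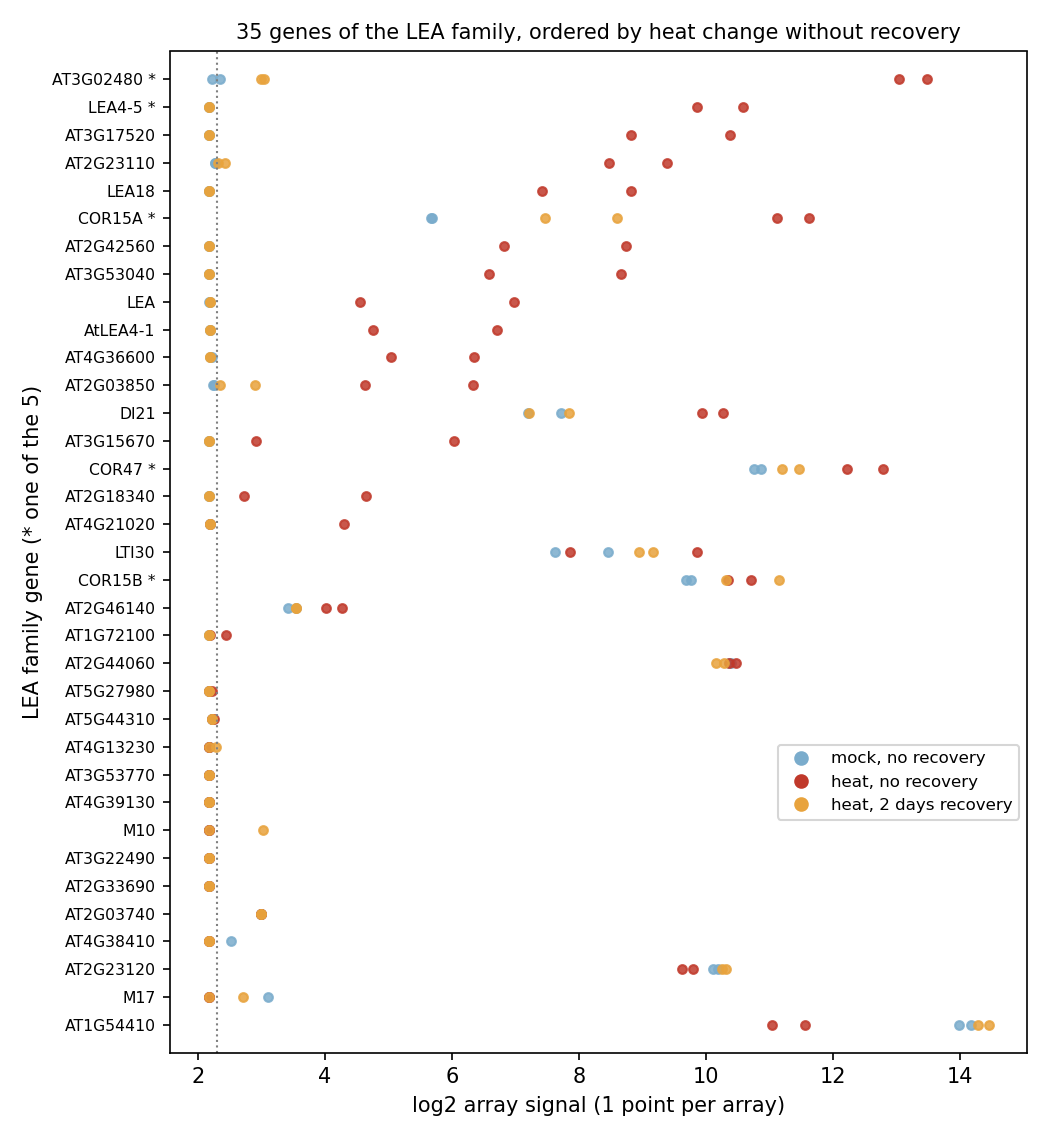
Log2 array signal (x axis) of 35 LEA family genes (y axis, ordered by heat change without recovery; asterisks mark the 5 genes) in mock without recovery, heat without recovery and heat after 2 days. Each point is 1 array and the dotted line is the floor at 2.3; most genes in the upper part leave the floor on the red heat arrays and are back there 2 days later, while AT1G54410 at the bottom has a lower signal in heat.

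The 2 heat arrays without recovery differed for this family. Of the 11 other LEA family genes called higher, 10 read higher on replicate 2, and the median difference was 1.56 on the log2 scale (from -0.33 to 2.41). Over all 4825 probe sets called higher 46.9% read higher on replicate 2, with a median of -0.02. Among called probe sets that were at the floor on both earlier mock arrays, 183 of 353 read higher on replicate 2, against 9 of 9 other LEA family genes. AT3G02480, LEA4-5, COR15A and COR47 were higher on replicate 2 by 0.44, 0.74, 0.49 and 0.57, and COR15B differed by -0.36. This pattern was noticed in the values and has no test.

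Recovered seedlings were then compared with mock seedlings of the same day. COR15A was higher in recovered than in mock plants by 2.03 ± 0.53, a 4.10-fold difference. COR15B was higher by 1.58 ± 0.39 and COR47 by 0.89 ± 0.22. AT3G02480 was higher by at least 0.84 ± 0.15, with both arrays of each group below log2 4. LEA4-5 was at the floor on all 4 arrays, so no difference could be measured.

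In AT3G02480 and the COR genes both recovered arrays stood above both mock arrays of that day, an order also found in 16.9% of all probe sets. Without single arrays the difference ran from 1.46 to 2.61 for COR15A, 1.16 to 2.01 for COR15B and 0.76 to 1.02 for COR47.

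Other cold-regulated genes were set beside them. Their list was also chosen with earlier results of these data known, so its shares, medians and p-values are description. The list of 25 cold-regulated genes had 7 with a probe set, of which 4 are not COR15A, COR15B or COR47. After recovery limma called none of the 4, in a fit that called 0.132% of all probe sets higher and 0.106% lower (30 and 24, or 135 and 66 with arrays centred on their medians). An unadjusted p under 0.05 with a higher signal was found in 3 of the 4 and in 6.42% of all probe sets, and the median difference of the 4 was 1.36, against 0.00. COR27, which links cold and the circadian clock, read 4.46 and 5.74 in mock and 8.46 and 9.00 in recovered plants (3.63 ± 0.47, adjusted p = 0.0895). AT4G33980 read 6.84 and 7.82 in mock and 9.52 and 9.92 in recovered plants (2.38 ± 0.36, adjusted p = 0.108). For both, the recovered arrays lay above all mock arrays of that day, and both were called when the fit was limited to the 13849 probe sets that reached log2 4 on 2 or more arrays, where 2.17% were called higher (adjusted p = 0.00687 and 0.0111).

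TIL, a temperature-induced lipocalin, differed by 0.33 ± 0.11 (adjusted p = 0.340) and the dehydrin LTI30 by 0.29 ± 0.74 (adjusted p = 1.00) in the limma fit. ALDH7B4, an aldehyde dehydrogenase induced by water loss and the 1 measured gene of 23 on the abscisic acid and dehydration list, differed by 1.06 ± 0.30 (adjusted p = 0.266). In heat without recovery ALDH7B4 had risen by 1.71 ± 0.30 (adjusted p = 0.0117) and TIL by 0.98 ± 0.11 (adjusted p = 0.00306), while AT4G33980 had fallen by 1.58 (SE 0.36, adjusted p = 0.0252). COR27 (0.97 ± 0.47, adjusted p = 0.197) and LTI30 (0.82 ± 0.74, adjusted p = 0.508) had not been called in the fit over all probe sets. In the limma fit limited to the 13849 brighter probe sets, 35.2% were called higher in heat without recovery. There COR27 was called (adjusted p = 0.0473) and LTI30 was not (adjusted p = 0.239). None of the 32 genes of abscisic acid synthesis, breakdown and signalling had a probe set with 1 gene, so they were not analysed here.

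**Figure D3:**
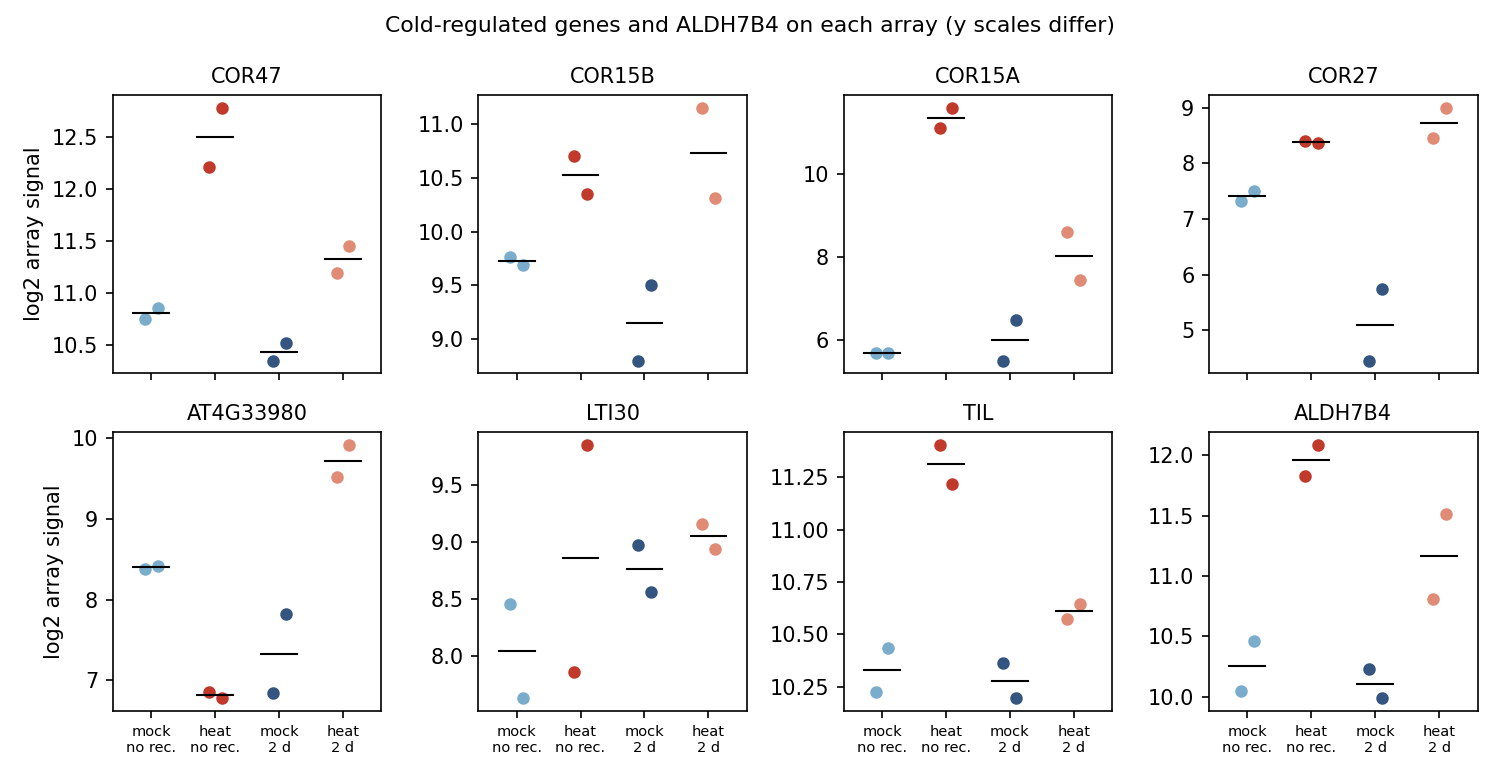
Log2 array signal (y axis, scale set per panel) of the 7 measured cold-regulated genes and ALDH7B4 by group (x axis). Points are single arrays and lines are means of 2. In each panel but that of LTI30 both heat arrays after recovery lie above both mock arrays of that day, as in 16.9% of all probe sets. COR15A, COR15B and COR47 were chosen with this difference known, and the lists with earlier results known.

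For the rest of the LEA family little was measured after recovery. Of the 30 genes limma called none, with 0 higher and 1 lower at an unadjusted p under 0.05 (6.42% and 6.23% of all probe sets), and the median difference was 0.00. Most of the 30 lay at the floor on all mock and recovered arrays of that day, where no difference could be measured. Of the 11 that had risen, 7 were at the floor on both recovered arrays. The 1 with an unadjusted p under 0.05 was AT2G44060 of the LEA_2 class, at 10.52 and 10.64 in mock and 10.29 and 10.16 in recovered plants (-0.35 ± 0.07, adjusted p = 0.168).

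Mock plants of both days were compared last, since their level 2 days apart is the reference for recovery. The genes were not chosen by this comparison, but it shares its mock arrays with the heat changes known for them. Its p-values and intervals for the 5 genes are therefore description too. In this limma fit 0.0352% of probe sets were called lower and 0.044% higher, and none of the 5 genes was called. COR15B stood lower in the later mock plants by 0.58 (SE 0.39, 95% interval -1.62 to 0.46, adjusted p = 0.834) and COR47 by 0.37 (SE 0.22, interval -0.96 to 0.22, adjusted p = 0.834). COR15A stood higher by 0.31 ± 0.53 (interval -1.11 to 1.74, adjusted p = 1.00). Both later mock arrays lay below both earlier ones for COR15B and COR47, as for 16% of all probe sets, while those of COR15A overlapped. The value of COR15B rested on single arrays, at -0.22 without mock recovery replicate 1 and -0.93 without mock recovery replicate 2. That of COR15A was 0.81 and -0.18 without the same arrays.

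Set against the earlier mock plants instead, the recovered mean was higher by 2.35 for COR15A, 1.01 for COR15B, 0.52 for COR47 and 0.73 for AT3G02480. These values were computed after the others were seen and have no test. The difference for COR15A was thus of similar size against either mock group, while those for COR15B and COR47 were smaller against the earlier one by those mock changes, with the same dependence on single arrays for COR15B. COR27 and AT4G33980 also stood lower in the later mock plants, with log2 changes of -2.31 ± 0.47 and -1.07 ± 0.36 (limma adjusted p = 0.287 and 0.516).

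**Figure D4:**
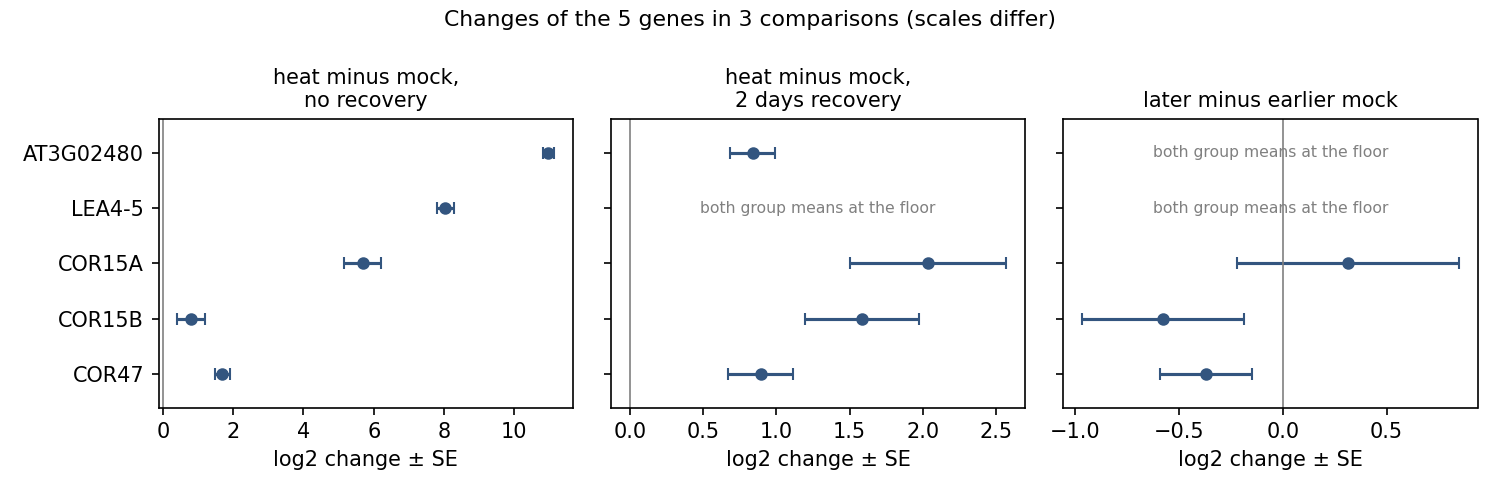
Log2 change ± SE (x axis, scale set per panel) of the 5 genes (y axis) for heat minus mock without recovery, heat minus mock after 2 days, and later minus earlier mock. Heat changes run from 0.80 to 10.97 before recovery, while after recovery the largest is that of COR15A at 2.03; where both group means were at the floor no point is drawn.

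From the heat to the recovered plants the log2 change was -10.24 ± 0.15 for AT3G02480, -8.04 ± 0.25 or beyond for LEA4-5, -3.34 ± 0.53 for COR15A and -1.17 ± 0.22 for COR47. COR15B differed by 0.20 ± 0.39, with overlapping arrays, and by -0.22 without heat recovery replicate 1. The heat effect after recovery minus that before was -3.65 ± 0.75 for COR15A, -0.80 ± 0.31 for COR47 and 0.78 ± 0.55 for COR15B. In this contrast limma called 16.9% of all probe sets lower (3846 of 22746) and 3504 higher. These comparisons share arrays with those above and are given as description. COR15B was thus the 1 gene of the 5 whose difference between heat and mock was larger after recovery than before (1.58 against 0.80). Without single arrays the change of its heat effect ran from 0.36 to 1.20.

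Genes with the most similar profiles were sought among 4274 probe sets with 1 gene, a range of 1 log2 unit or more and a log2 signal of 4 or more on 2 or more arrays, by Pearson correlation over the 8 arrays. These correlations rest on 4 group means and carry no test. For AT3G02480 the 3 nearest were AT2G20560, Hop3 (a co-chaperone between HSP70 and HSP90) and the small heat shock protein HSP22.0, each with r of 0.999. For LEA4-5 they were AT2G07721, AT5G37970 and the protease gene ULP1B, each with r of 1.00 and at the floor in the 3 groups where LEA4-5 was. Such profiles were common, since 1563 and 1583 of the 4274 correlated with AT3G02480 and LEA4-5 at 0.9 or above.

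For COR15A the nearest were OTP81, a factor for organelle transcripts (r = 0.992), AT3G05640 (r = 0.990) and AT5G37670 (r = 0.983), and 694 reached 0.9. For COR47 they were AT3G09085 (r = 0.996), AT4G07990 (r = 0.991) and AT5G19960 (r = 0.989), and 536 reached 0.9. The profile of COR15B was the least common of the 5 by this count. Only AT1G62290 reached 0.9 (r = 0.913), followed by AT5G38895 (r = 0.882) and COR27 (r = 0.874). Among the 5 genes themselves r ran from 0.402, for LEA4-5 with COR15B, to 0.997, for AT3G02480 with LEA4-5, and COR15A correlated with COR15B at 0.709.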

How the data were processed

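The submitters' processing notes name GCRMA (background correction, quantile normalization and probe summary) without a version. The authors deposited 1 value per probe set and array as a digit string, and 0 of 182480 held a decimal point. The point was restored behind the leading digit, and behind the second digit where a value began with 1. None began with 16 to 20. The log2 scale is thus a reading of the deposited values. No scaling was added.

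Of 22810 probe sets, 64 controls were left out. The platform table gave 1 gene for 13513, of which 13436 matched RefSeq (TAIR10.1, names only). limma 3.58.1 (R 4.3.3) fitted 4 group means to all 8 arrays, with 4 residual degrees of freedom. P was two-sided and adjusted over 22746 probe sets, threshold 0.05. Replicates correlated at 0.995 to 0.996, and 2 arrays per group limit the precision. Array medians ran from 5.05 to 5.12, and 30.8% to 31.7% of an array's values lay below 2.3. The fit was tested on simulated data without a floor, which does not cover genes silent outside heat. Python 3.11.15, pandas 2.3.3 and matplotlib 3.10.9 read and drew values.

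The 5 genes and all lists were chosen with earlier results of these data known. A planned test of the 5 genes after recovery is not reported, because those values were among the known ones. Per list, up to 8 genes with the smallest p in heat and up to 4 after recovery, members aside, were named, as were the 3 most similar profiles per gene. Family classes were assigned by hand from general knowledge. Alternatives changed the probe filter, floor, arrays fitted, variance prior, scaling and replicate block, and left out single arrays.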

Additional observations from a re-analysis of the deposited data

Results flagged for a closer look

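The heat effect before and after recovery stood farthest apart in 3 of the 5 genes. The heat effect after recovery minus that without recovery was -10.13 for AT3G02480, -8.04 for LEA4-5 and -3.65 for COR15A. All 3 had been chosen with these values, or the heat changes they come from, known, so they are descriptions without a test. LEA4-5 was at the floor in 3 of the 4 groups, so the size of its difference is a minimum. Groups of 2 arrays are too small for the search for outlying arrays.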

How the results depend on the processing

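With values under 4 set to 4 the recovery difference of AT3G02480 was 0.00. That setting, by its construction, made the heat changes 9.26 (AT3G02480) and 6.22 (LEA4-5), and both the falls during recovery and the differences in heat effect -9.26 and -6.22.

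Without single arrays the heat change ran from 10.75 to 11.19 for AT3G02480, 7.67 to 8.41 for LEA4-5 and 1.41 to 1.98 for COR47. The change from heat to recovered plants ran from -10.46 to -10.02, -8.41 to -7.67 and -1.46 to -0.88 for the same genes, from -3.91 to -2.76 for COR15A and from -0.22 to 0.63 for COR15B. The difference in heat effect ran from -10.35 to -9.91 (AT3G02480), -8.41 to -7.68 (LEA4-5), -4.22 to -3.08 (COR15A), -1.09 to -0.51 (COR47) and 0.36 to 1.20 (COR15B). The mock change of COR15A was -0.18 without mock recovery replicate 2, with a range of -0.18 to 0.81 over single arrays left out. That of COR15B ran from -0.93 to -0.22. The recovery difference ran from 1.46 to 2.61 for COR15A and 1.16 to 2.01 for COR15B.

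Counts over all probe sets moved more. After recovery 54 were called, against 582 over the 13849 brighter probe sets, 18 with values under 4 set to 4, 1 with only the 4 arrays compared, 201 with arrays centred on their medians (135 higher and 66 lower, against 30 and 24), and 15 to 431 without single arrays. Mock plants gave 18 calls, against 8 with values under 4 set to 4, 0 with only the 4 arrays compared (2162 with an unadjusted limma p under 0.05) and 4 to 361 without single arrays. The 11 other LEA genes called higher became 7 with values under 4 set to 4, 5 with only the 4 arrays compared and 8 to 17 without single arrays. For heat against mock without recovery, 21.2% of all probe sets were called higher in the main fit. That share was 18.6% with values under 4 set to 4 and 15.9% with only the 4 arrays compared. The LEA range without single arrays comes from fits that leave 1 array in a group. Since 1 array shows no spread, nothing is concluded from that range. The cause of the moves in these counts was not tested.

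The replicate numbers did not pair the arrays: deviations of same-numbered arrays correlated between -0.15 and 0.19 across 13849 probe sets over the 6 pairs of groups. With the replicate block 18 probe sets were called after recovery and 9 between mock plants, and no call of the COR genes between mock plants changed. A crossed replicate block, with the heat numbers swapped, was added after seeing the data and gave 6 calls after recovery.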
